A study of Mus musculus with 8 samples.

Results

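Hypertrophy is the step at which growth plate chondrocytes stop dividing, enlarge and prepare cartilage for replacement by bone. The 9 genes described here were chosen by name from 21887 mouse protein-coding genes in the RefSeq table of GRCm38.p6. They are 6 regulators, namely Ihh, Pthlh, Pth1r, Runx2, Runx3 and Mef2c, and 3 terminal markers, namely Panx3, Col10a1 and Mmp13. A peak was assigned to a gene when it overlapped the gene by at least 1 bp or lay within 5 kb of it.

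The peaks come from chromatin immunoprecipitation and sequencing (ChIP) with an antibody against H3K27me3, histone H3 trimethylated at lysine 27, in chondrocytes from mouse cartilage kept in serum-containing medium. The groups were Ezh2-cKO and Jmjd3-cKO (written Ezh2-Cko and Jmjd3-Cko in the labels), Utx-cKO, and wild type, with 1 ChIP and 1 input library each. Ezh2 is the Polycomb enzyme that writes the mark, and Utx and Jmjd3 are demethylases that remove it. No label names a Cre driver, strain or age, so the cells in which a gene was deleted are not known. The design sets the mark in each of the 3 knockouts beside wild type. With n = 1 per genotype nothing was tested between genotypes and no value has a replicate check.

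Fragments kept for peak calling numbered between 25655346 (Jmjd3-cKO) and 34786292 (Ezh2-cKO) in the ChIP libraries. In the input libraries they numbered 24041619 in Ezh2-cKO, 23983492 in Utx-cKO, 16645811 in Jmjd3-cKO and 16599532 in wild type. Input depth thus set Ezh2-cKO and Utx-cKO apart from Jmjd3-cKO and wild type. Its part in any difference between these lists was not tested. On the assembled chromosomes the authors' lists held 33732 peaks in Ezh2-cKO, 49398 in Utx-cKO, 27007 in Jmjd3-cKO and 28050 in wild type. Peaks covered 1.19 times the wild-type length in Ezh2-cKO, 1.83 times in Utx-cKO and 1.02 times in Jmjd3-cKO, and the members' values should be read against these ratios. Library titles begin with one string of digits in Ezh2-cKO, another in both demethylase knockouts and another in wild type. What the digits stand for is not stated, and anything they mark cannot be told apart from genotype except between Utx-cKO and Jmjd3-cKO. A peak is not read here as a silent gene, since all 12 housekeeping genes examined, such as Actb and Gapdh, had a peak in every list. In wild type their strongest peaks had fold enrichments over input from 4.57 (Pgk1) to 14.1 (Ywhaz), against 3.39 at Ihh and 2.47 at Pthlh. Fold enrichment is thus not read as a degree of silencing either. Ezh2 writes the named mark, yet the Ezh2-cKO list held more peaks than the wild-type list. Whether the deposited peaks reflect the named mark was not tested. All 7 chondrocyte marker genes examined, among them Sox9, Col2a1 and Acan, also had a peak in every list. Peaks give no RNA level, however, and so do not check the cell type.

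In the growth plate, Indian hedgehog (Ihh) is secreted by chondrocytes that are leaving the cell cycle and induces parathyroid hormone-related protein (Pthlh) nearer the joint. Pthlh acts through its receptor Pth1r to keep chondrocytes dividing, and this loop sets the distance at which hypertrophy begins. The transcription factors Runx2, Runx3 and Mef2c drive hypertrophy. Panx3 encodes a pannexin channel of prehypertrophic cells, Col10a1 the collagen of hypertrophic cartilage, and Mmp13 a collagenase of its last stage.

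The promoter sequences at listed transcription starts differed between members in their content of CpG, the CG dinucleotide, and are shown because peaks over them differed likewise. RefSeq sequences of GRCm38.p6 were found for 8 of the 9 members, with 13 listed starts between them. Panx3 is named without one. Each window runs 5′ to 3′ on the gene's strand, from 250 bases before a listed start to 50 bases past it. Capitals mark CpG. The windows are chr1:74951623-74951922 (minus strand) for Ihh, chr6:147263964-147264263 (minus) for Pthlh, chr9:110747096-110747395 (minus) for the outermost Pth1r start and chr9:110742561-110742860 (minus) for the innermost. They are chr17:44814578-44814877 (minus) for Runx2, chr4:135152295-135152594 (plus) for the inner Runx3 start, chr10:34389731-34390030 (plus) for Col10a1 and chr9:7272264-7272563 (plus) for Mmp13.
Ihh: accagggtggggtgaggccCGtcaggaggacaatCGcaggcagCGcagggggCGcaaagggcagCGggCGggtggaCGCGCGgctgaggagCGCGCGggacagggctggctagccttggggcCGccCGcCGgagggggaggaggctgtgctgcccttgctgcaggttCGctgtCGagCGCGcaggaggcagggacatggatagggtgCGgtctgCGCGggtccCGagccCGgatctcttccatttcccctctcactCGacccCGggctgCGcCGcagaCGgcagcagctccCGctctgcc
Pthlh: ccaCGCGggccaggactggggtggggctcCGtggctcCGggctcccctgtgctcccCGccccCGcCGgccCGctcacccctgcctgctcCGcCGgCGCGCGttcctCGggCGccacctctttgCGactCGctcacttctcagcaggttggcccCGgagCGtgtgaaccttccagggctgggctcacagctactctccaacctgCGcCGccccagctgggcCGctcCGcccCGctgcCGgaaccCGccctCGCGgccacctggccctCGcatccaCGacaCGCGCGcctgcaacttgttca
Pth1r outermost start: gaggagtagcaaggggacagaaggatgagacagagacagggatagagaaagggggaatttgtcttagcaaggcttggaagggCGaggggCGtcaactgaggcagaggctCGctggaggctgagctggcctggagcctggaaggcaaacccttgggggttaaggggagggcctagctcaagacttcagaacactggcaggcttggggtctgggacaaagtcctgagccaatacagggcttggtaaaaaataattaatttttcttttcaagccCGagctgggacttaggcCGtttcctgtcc
Pth1r innermost start: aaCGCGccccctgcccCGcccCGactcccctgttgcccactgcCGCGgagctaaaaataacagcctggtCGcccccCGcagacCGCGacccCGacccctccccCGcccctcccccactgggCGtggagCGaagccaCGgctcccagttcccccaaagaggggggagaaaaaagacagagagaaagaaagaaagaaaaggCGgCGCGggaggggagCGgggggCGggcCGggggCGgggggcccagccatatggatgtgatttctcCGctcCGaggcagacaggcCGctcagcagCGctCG
Runx2: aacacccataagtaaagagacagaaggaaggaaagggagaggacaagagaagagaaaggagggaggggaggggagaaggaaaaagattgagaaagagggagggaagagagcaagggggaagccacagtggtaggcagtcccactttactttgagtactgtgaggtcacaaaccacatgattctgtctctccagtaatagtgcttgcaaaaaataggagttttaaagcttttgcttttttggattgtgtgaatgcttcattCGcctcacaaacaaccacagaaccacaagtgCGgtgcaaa
Runx3 inner start: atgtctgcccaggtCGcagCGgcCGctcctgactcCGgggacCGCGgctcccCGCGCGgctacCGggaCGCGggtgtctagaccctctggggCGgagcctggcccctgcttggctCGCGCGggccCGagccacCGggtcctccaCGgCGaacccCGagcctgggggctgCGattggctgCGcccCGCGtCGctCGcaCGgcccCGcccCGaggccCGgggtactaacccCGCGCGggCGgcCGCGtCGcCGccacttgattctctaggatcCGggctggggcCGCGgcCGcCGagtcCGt
Col10a1: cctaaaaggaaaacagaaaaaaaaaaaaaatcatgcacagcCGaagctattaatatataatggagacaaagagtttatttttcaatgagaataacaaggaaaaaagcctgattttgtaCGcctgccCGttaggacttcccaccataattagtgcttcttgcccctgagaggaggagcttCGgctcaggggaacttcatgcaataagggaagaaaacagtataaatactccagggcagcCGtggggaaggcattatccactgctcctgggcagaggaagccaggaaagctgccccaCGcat
Mmp13: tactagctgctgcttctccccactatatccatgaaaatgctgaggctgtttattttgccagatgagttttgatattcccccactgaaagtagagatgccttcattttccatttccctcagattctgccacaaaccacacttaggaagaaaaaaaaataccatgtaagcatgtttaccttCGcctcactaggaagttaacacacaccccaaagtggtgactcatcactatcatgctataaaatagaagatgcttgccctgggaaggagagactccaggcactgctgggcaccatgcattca

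The windows shown fell into a CpG-rich and a CpG-poor group. Of those not shown, the outer Runx3 start held 8 CpG and the second Mef2c start 10, between these groups. Ihh held 30 CpG, Pthlh 33, the innermost Pth1r start 27 and the inner Runx3 start 45. The outermost Pth1r start held 5, Runx2 2, Col10a1 6 and Mmp13 1. Over all 21263 windows of protein-coding genes the median was 13, with an interquartile range of 4 to 24.

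All 6 regulators had at least 1 peak in each of the 4 lists. Of the 3 terminal markers, Panx3 had one in each list, and Col10a1 and Mmp13 had none in any list. By the same rule a peak was found at 70.6% of all genes in Ezh2-cKO (95% Wilson interval 70 to 71.2%), 73.5% in Utx-cKO (72.9 to 74.1%), 68.9% in Jmjd3-cKO (68.3 to 69.5%) and 68.7% in wild type (68.1 to 69.3%). These intervals cover counting error only. Length matters for this rule: of genes of 25 kb or more, as Pth1r, Runx2, Runx3 and Mef2c are, 86.3% had a peak in Ezh2-cKO, 88.8% in Utx-cKO, 84.5% in Jmjd3-cKO and 84.6% in wild type. Of genes of 5 to 15 kb, as the other 5 members are, the shares were 71.8% in Ezh2-cKO, 75.5% in Utx-cKO, 69.9% in Jmjd3-cKO and 69.3% in wild type. Over all genes, 66.4% had a peak in all 4 lists, as 7 of the 9 members did, and 25.3% had none in any list, as Col10a1 and Mmp13 did. These counts are near the background and show nothing particular to the members.

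By this rule no member was gained or lost in a knockout relative to wild type. The Panx3 call in Jmjd3-cKO rests on a peak at the start of the neighbouring gene Tbrg1: with the gene body alone, or with peaks at other genes' ends left out, 1 member, Panx3, was lost in Jmjd3-cKO. Over all genes, 3.05% had a peak in Ezh2-cKO and none in wild type, and 1.12% the converse. In Utx-cKO the shares were 5.3% and 0.507%, and in Jmjd3-cKO 2% and 1.77%. With these shares, 0 of 9 is near the background. No peak of any list lay between 5 and 10 kb from a member, so a window of 10 kb gives the same calls. A narrower one does not: with 2 kb flanks Panx3 had no peak in Jmjd3-cKO, where its only peak lay 2.139 kb from the gene.

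**Figure D1:**
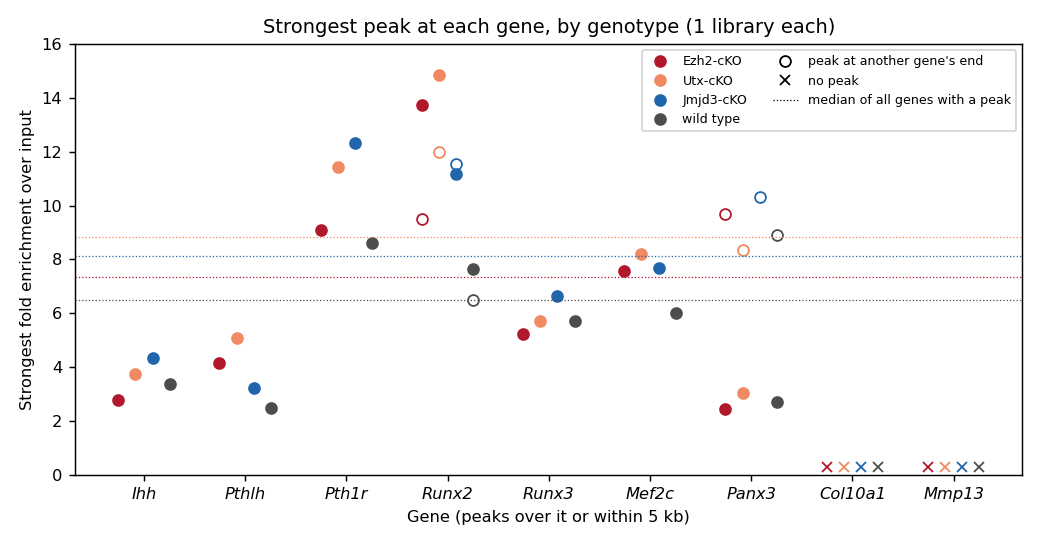
The y axis gives the strongest fold enrichment over input at each gene, and the x axis the 9 genes. Each point is 1 library, open points are peaks at the end of another gene, crosses mark genes without a peak, and dotted lines give the median of all genes with a peak in that list (7.35 in Ezh2-cKO, 8.81 in Utx-cKO, 8.12 in Jmjd3-cKO, 6.49 in wild type). Ihh and Pthlh lie below these medians in every list, Runx2 and Pth1r above them, and Col10a1 and Mmp13 have no peak.

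Peaks at the ligand genes were weak. Fold enrichment is the authors' ratio of a peak over its own local input, so values of different lists are given side by side and ranks are used to place them. The strongest Ihh peak had a fold enrichment of 2.77 in Ezh2-cKO, 3.73 in Utx-cKO, 4.33 in Jmjd3-cKO and 3.39 in wild type. Jmjd3-cKO was highest and Ezh2-cKO lowest, and all 4 values lay below the list's median over genes with a peak. Among those genes Ihh stood at percentile 4.73 in Ezh2-cKO, 12.1 in Utx-cKO, 14.96 in Jmjd3-cKO, and 11.7 in wild type.

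In Utx-cKO the strongest peak was one inside the gene, and in the other lists it was the peak over the start. The peak over the start had a fold enrichment of 3.35 in Utx-cKO. It was 1981 bp long in Ezh2-cKO (chr1:74949956-74951936), 2255 bp in Utx-cKO, 653 bp in Jmjd3-cKO and 617 bp in wild type (chr1:74951292-74951908). Thus the Ezh2-cKO and Utx-cKO peaks reached further into the gene and the Jmjd3-cKO peak was close to wild type in length. Another peak, in a region centred 3.25 kb downstream of the start, was 347 bp long in Ezh2-cKO, 839 bp in Utx-cKO and 289 bp in wild type, and was not called in Jmjd3-cKO. Summed over both, peaks covered 2.57 times the wild-type length in Ezh2-cKO and 3.42 times in Utx-cKO, against 0.721 times in Jmjd3-cKO. With peaks within 3 kb merged, Ihh had 3827 bp covered in Ezh2-cKO, 4006 bp in Utx-cKO, 653 bp in Jmjd3-cKO and 3817 bp in wild type. The excess in Ezh2-cKO and Utx-cKO was then nearly gone, and Jmjd3-cKO was far below wild type. Merging counts the stretch between peaks as covered, and Jmjd3-cKO had only 1 peak here. The merged lengths thus rest on the gaps as well as on the peaks. At q of 0.001 or less, no Ezh2-cKO peak was left at Ihh.

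Pthlh had a single peak in each list, over its CpG-rich start, and wild type was lowest. Fold enrichment was 4.13 in Ezh2-cKO and 5.06 in Utx-cKO, with 3.21 in Jmjd3-cKO, against 2.47 in wild type. The peak measured 1105 bp in Ezh2-cKO, 1564 bp in Utx-cKO, 1198 bp in Jmjd3-cKO and 862 bp in wild type (chr6:147263451-147264312). Within the full lists it stood at percentile 63.9 of all Ezh2-cKO peaks, 75.9 of Utx-cKO and 38.7 of Jmjd3-cKO peaks, against 9.02 of wild-type peaks. These ranks come from lists of unequal length and show no change by themselves. At q of 0.001 or less, the wild-type peak at Pthlh was no longer called.

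At the receptor gene Pth1r the strongest peak covered both inner starts and left out the outermost one. The table lists 3 starts, the second 3459 bp and the third 4535 bp downstream of the first. The peak over the inner pair had a fold enrichment of 9.11 in Ezh2-cKO, 11.4 in Utx-cKO, 12.3 in Jmjd3-cKO and 8.61 in wild type. It was 3276 bp long in Ezh2-cKO, 3152 bp in Utx-cKO, 1933 bp in Jmjd3-cKO and 2605 bp in wild type (chr9:110741498-110744102), so it was shortest where its fold enrichment was highest. No list had a peak over the window of the outermost start.

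Along the rest of Pth1r the Utx-cKO list stood apart. Pth1r had 4 peaks in Ezh2-cKO, 11 in Utx-cKO, 2 in Jmjd3-cKO and 3 in wild type. They covered 6017 bp in Ezh2-cKO, 13319 bp in Utx-cKO, 2882 bp in Jmjd3-cKO and 4735 bp in wild type, which is 17.2% of the gene with its flanks in Ezh2-cKO, 38.0% in Utx-cKO, 8.22% in Jmjd3-cKO and 13.5% in wild type. Of its 11 distinct regions, 7 were called in Utx-cKO alone, beside 30.6% of the 58180 regions of the whole series. With each list limited to its 27007 peaks of highest −log10 q, Pth1r had 4 peaks in Ezh2-cKO, 6 in Utx-cKO, 2 in Jmjd3-cKO and 3 in wild type, and they covered 9902 bp in Utx-cKO against 4735 bp in wild type. Of the regions called in Utx-cKO alone, only those with peaks of 236 bp and 510 bp were then left.

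**Figure D2:**
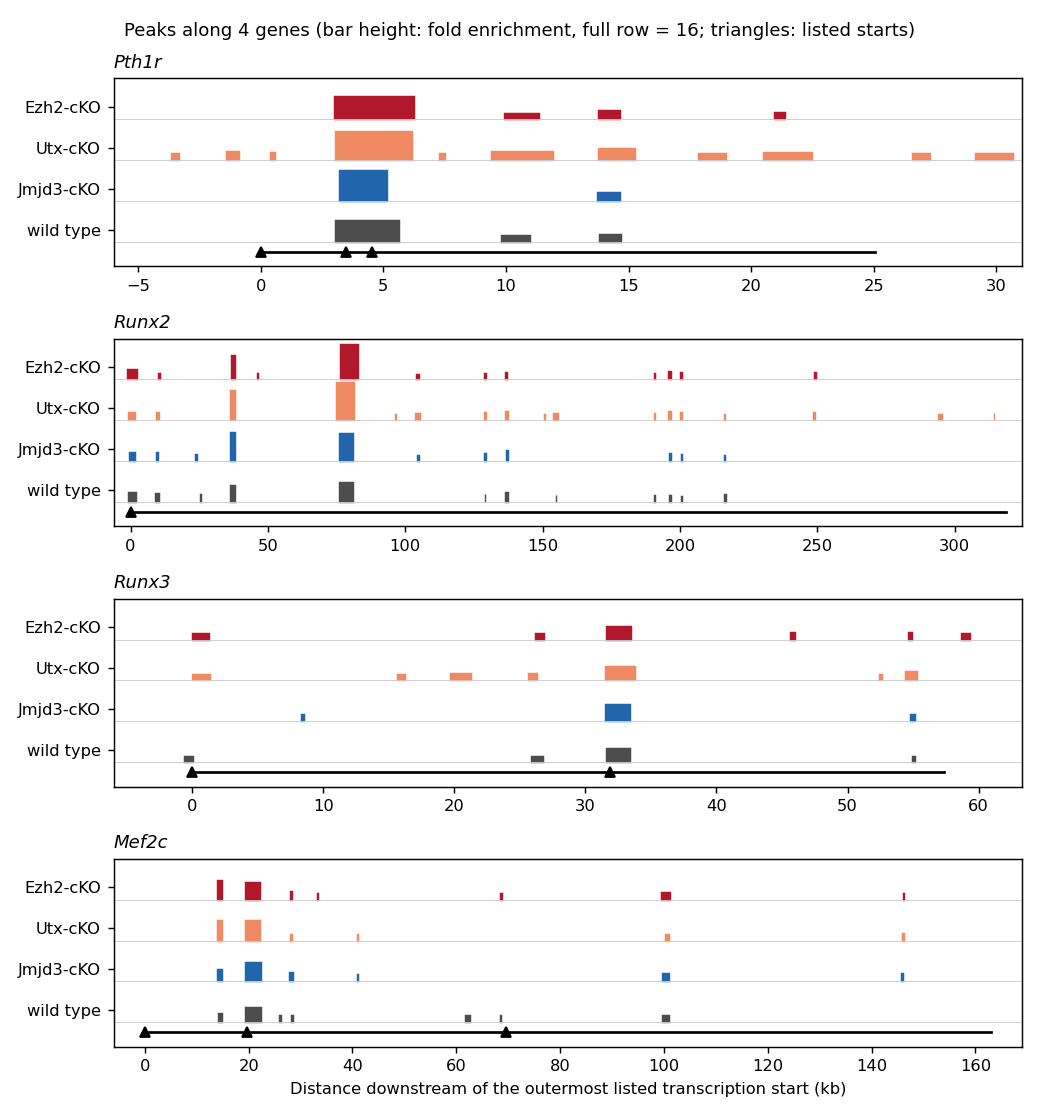
Each panel shows a gene along its own strand, with the distance downstream of its outermost listed start on the x axis (kb) and 1 row per genotype. Boxes are peaks, their width is to scale and their height is fold enrichment (a full row is 16), triangles are listed starts and the black line is the gene. The tallest boxes of Pth1r and Runx3 lie over inner starts in all 4 lists, and those of Runx2 lie inside the gene.

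Among the transcription factors, Runx2 had the most peaks and the longest one. It had 12 peaks in Ezh2-cKO, 17 in Utx-cKO, 11 in Jmjd3-cKO and 12 in wild type, over a gene of 318811 bp. With lists of 27007 peaks the counts were 7 in Ezh2-cKO, 10 in Utx-cKO, 11 in Jmjd3-cKO and 11 in wild type, so Utx-cKO no longer had the most. Its longest peak lay inside the gene, centred 78.8 kb downstream of its listed start, and was 6525 bp long in Ezh2-cKO (chr17:44731986-44738510), 6501 bp in Utx-cKO, 5203 bp in Jmjd3-cKO and 5187 bp in wild type (chr17:44733695-44738881). By length it stood at percentile 98.9 of its list in Ezh2-cKO, 98.1 in Utx-cKO, 97.6 in Jmjd3-cKO and 97.8 in wild type. Runx2 is known to be transcribed from a distal and a proximal promoter, and the table lists a single start near the gene's end, so the peak was not assigned to a start.

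This internal Runx2 peak had a higher fold enrichment in the knockout lists than in wild type. Its fold enrichment was 13.7 in Ezh2-cKO and 14.8 in Utx-cKO, with 11.2 in Jmjd3-cKO, against 7.63 in wild type. Medians over genes with a peak were also higher in the knockouts, but by less. A second strong peak, centred 37.2 kb downstream of the start, covered the start of Supt3, a neighbour that overlaps Runx2, and cannot be assigned to either gene. It had fold enrichments of 9.51 in Ezh2-cKO, 12.0 in Utx-cKO, 11.5 in Jmjd3-cKO and 6.50 in wild type. In Jmjd3-cKO it was the strongest peak over Runx2.

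At the listed Runx2 start itself a peak was present in all 4 lists in spite of a CpG-poor window. Its fold enrichment was 4.13 in Ezh2-cKO, 3.20 in Utx-cKO, 3.50 in Jmjd3-cKO and 4.09 in wild type, and it was 3450 bp long in Ezh2-cKO, 2539 bp in Utx-cKO, 1901 bp in Jmjd3-cKO and 3068 bp in wild type. Of all windows with 0 to 3 CpG, 5.88% had a peak in Ezh2-cKO, 7.96% in Utx-cKO, 4.86% in Jmjd3-cKO and 4.64% in wild type. The Runx2 window was thus among a minority of its CpG class.

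Runx3, a relative of Runx2 with overlapping roles in hypertrophy, had its strongest peak over its inner start, 31900 bp downstream of the outer one. Fold enrichment there was 5.23 in Ezh2-cKO, 5.72 in Utx-cKO, 6.65 in Jmjd3-cKO and 5.71 in wild type, and the peak was 1919 bp long in Ezh2-cKO, 2323 bp in Utx-cKO, 1933 bp in Jmjd3-cKO and 1893 bp in wild type. The 4 lists were close to each other at this start. At the outer start, with 8 CpG, a weak peak was called in Ezh2-cKO (2.75), Utx-cKO (2.68) and wild type (2.35), and none in Jmjd3-cKO. Runx3 had 6 peaks in Ezh2-cKO, 7 in Utx-cKO, 3 in Jmjd3-cKO and 4 in wild type. With lists of 27007 peaks it had 5 in Ezh2-cKO, 2 in Utx-cKO, 3 in Jmjd3-cKO and 4 in wild type, so Utx-cKO was then lowest.

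Mef2c, which acts upstream of Runx2 in chondrocytes, had its longest peak over the second of its 3 listed starts, 19622 bp downstream of the first. It was also the strongest Mef2c peak in Jmjd3-cKO and wild type, and not in Ezh2-cKO or Utx-cKO. Fold enrichment was 7.03 in Ezh2-cKO, 8.02 in Utx-cKO, 7.70 in Jmjd3-cKO and 6.01 in wild type, with lengths of 2974 bp in Ezh2-cKO, 3021 bp in Utx-cKO, 3002 bp in Jmjd3-cKO and 3203 bp in wild type. The peak was thus of nearly one length in the 4 lists. No list had a peak over the windows of starts 1 and 3.

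A narrow peak inside Mef2c, centred 14.4 kb downstream of the first start, differed more between lists than the one at the start. Its fold enrichment was 7.56 in Ezh2-cKO and 8.19 in Utx-cKO, with 4.96 in Jmjd3-cKO, against 3.57 in wild type (chr13:83518101-83518894). Its length was 892 bp in Ezh2-cKO, 848 bp in Utx-cKO, 843 bp in Jmjd3-cKO and 794 bp in wild type, so it differed in strength with little change in length. Of the 10 Mef2c regions, 0 were called in Utx-cKO alone, beside 30.6% of all regions. Peaks covered 0.973 times the wild-type length in Ezh2-cKO, 0.814 times in Utx-cKO and 0.923 times in Jmjd3-cKO.

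**Figure D3:**
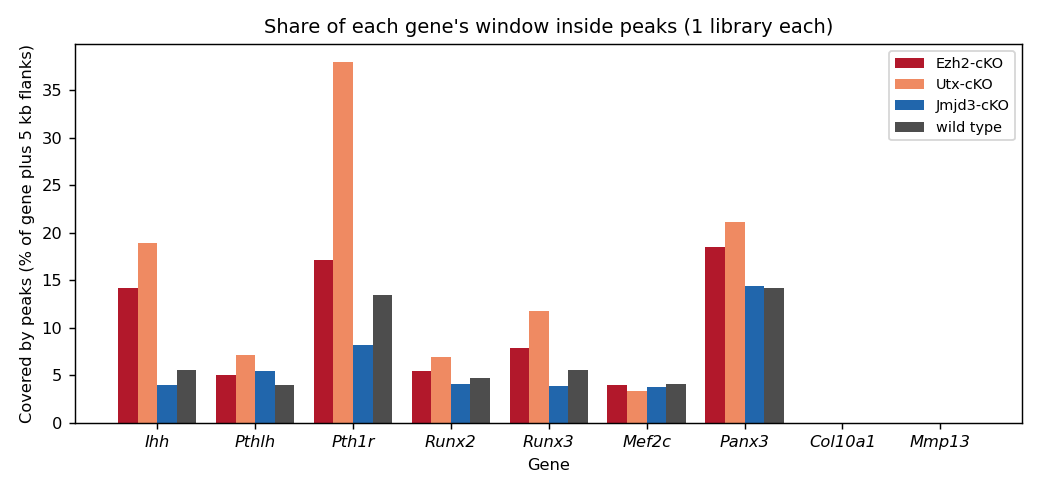
Bars give the percentage of each gene with its 5 kb flanks that lies inside peaks (y axis), for the 9 genes (x axis) in the 4 lists. The Utx-cKO bar is the tallest at every gene with a peak other than Mef2c, and reaches 38.0% at Pth1r, against 13.5% in wild type. With lists of 27007 peaks this order did not hold at Runx3, where peaks covered 4604 bp in Ezh2-cKO, 3268 bp in Utx-cKO, 2636 bp in Jmjd3-cKO and 3747 bp in wild type.

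Among the terminal markers, Panx3 had its strong peak at a neighbour's start and weak peaks of its own. A peak at the start of Tbrg1 lay in the Panx3 flank in every list, with fold enrichment 9.68 in Ezh2-cKO, 8.37 in Utx-cKO, 10.3 in Jmjd3-cKO and 8.92 in wild type. Peaks over Panx3 itself did not all lie at the same place. The wild-type peak (2.69) overlapped one in Utx-cKO (2.75), and none was called there in Ezh2-cKO or Jmjd3-cKO. A separate region, chr9:37668980-37669854, had a peak in Ezh2-cKO (2.43) and Utx-cKO (3.02), and none in Jmjd3-cKO or wild type. The wild-type peak over Panx3 was 235 bp long with a −log10 q of 1.69, against an authors' q threshold of 0.05. A peak over the gene body was found at 67.3% of all genes in Ezh2-cKO, 70.3% in Utx-cKO, 65.7% in Jmjd3-cKO and 65.2% in wild type. Counted over gene bodies, terminal markers with a peak numbered 1 in Ezh2-cKO, 1 in Utx-cKO, 0 in Jmjd3-cKO and 1 in wild type.

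Col10a1 and Mmp13 had no peak nearby in any list. The nearest peak to Col10a1 lay 18.7 kb away in Ezh2-cKO and Utx-cKO, 19.2 kb in Jmjd3-cKO and 18.9 kb in wild type. It covered the start of Nt5dc1, the gene in which Col10a1 lies, with fold enrichment 7.22 in Ezh2-cKO, 5.85 in Utx-cKO, 6.73 in Jmjd3-cKO and 6.89 in wild type. The nearest peak to Mmp13 lay 86.2 kb away in Ezh2-cKO, Jmjd3-cKO and wild type and 86.4 kb in Utx-cKO, over a listed start of Dcun1d5. The distances were nearly equal in the 4 lists. A lack of a peak says that none passed the authors' threshold at this depth, not that the mark was absent.

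Peaks over starts followed CpG content, which was not itself a rule for choosing the genes. The genes were chosen with earlier results of these data known, so the members are not independent support for this relation. A peak lay over 59.4% of all windows in Ezh2-cKO, 62.3% in Utx-cKO, 58.6% in Jmjd3-cKO and 57.5% in wild type. Of the 13 member windows, the 6 with 10 or more CpG had a peak in all 4 lists. Of the 7 with fewer, 5 had none in any list, Runx2 had one in all 4 and the outer Runx3 start in 3. The second Mef2c start held exactly 10 CpG and so lay at the limit between these classes. Over all windows the share with a wild-type peak was 4.64% with 0 to 3 CpG, 28.1% with 4 to 9, 80.0% with 10 to 19 and 95.5% with 20 or more. In Utx-cKO, the list with most peaks, these shares were 7.96%, 38.5%, 86.7% and 97.0%. The members' windows thus followed a relation seen across all genes, with Runx2 as the exception named above.

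**Figure D4:**
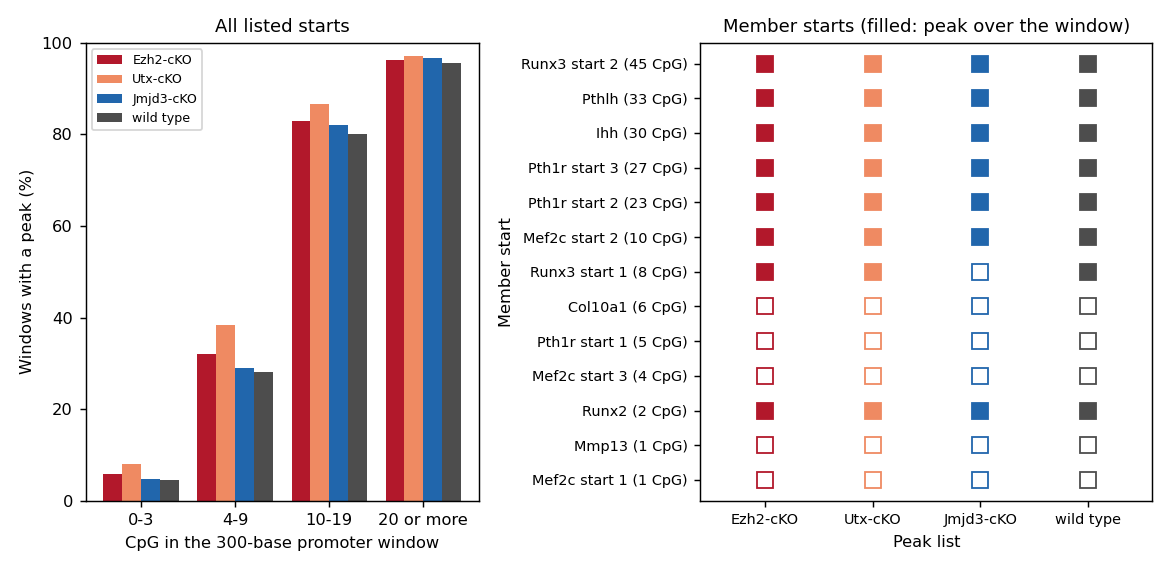
Left, the percentage of all 21263 promoter windows with a peak (y axis) by number of CpG in the window (x axis), in the 4 lists. Right, the 13 member starts ordered by CpG (rows) in the 4 lists (columns), filled where a peak overlaps the window. The 6 CpG-richest member starts are filled in all 4 columns, and Runx2 is the filled row near the bottom.

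The RUNX core motif TGTGGT, searched on both strands as TGTGGT or ACCACA with no overlap between these forms, was found in 3 of the 13 member windows. Runx2 held 3 matches, the outer Runx3 start 2, and Mmp13 1, which began 118 bases before the start. Of all windows 14.97% held at least 1 match. The motif was in none of the CpG-rich member windows. A match is a run of letters and not evidence of binding.

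To place the members on an equal footing, peaks of the 4 lists were joined into regions where they overlapped, and the 19077 regions called in all 4 lists were ranked by fold enrichment within each list. The members held 57 regions, of which 19 (33.3%) were in all 4 lists and 14 (24.6%) in Utx-cKO alone. Over all 58180 regions the shares were 32.8% and 30.6%, so the members' regions were spread over the lists much as regions in general.

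Of the 19, the Pthlh start and the Mef2c region at 14.4 kb ranked higher in Ezh2-cKO and Utx-cKO than in wild type. Pthlh stood at percentile 37.2 in Ezh2-cKO and 37.9 in Utx-cKO, with 20.2 in Jmjd3-cKO, against 5.12 in wild type. The Mef2c region stood at 69.4 in Ezh2-cKO, 61.6 in Utx-cKO, 42.7 in Jmjd3-cKO and 33.2 in wild type. A rank higher by 20 or more percentile points than in wild type was seen at 2 member regions for Ezh2-cKO, 2 in Utx-cKO, and 0 for Jmjd3-cKO, against 5.01% of all 19077 regions for Ezh2-cKO, 5.44% for Utx-cKO and 4.69% for Jmjd3-cKO. The 3 comparisons share the wild-type library, so they are not independent of each other. Pthlh, at 5.12 in wild type, had no room to rank 20 points lower. The shares over all regions are not matched for wild-type rank. Ranked by −log10 q, Pthlh stayed above this mark, with 22.3 points in Ezh2-cKO and 24.6 in Utx-cKO, and the Mef2c region fell just short, with 19.2 in Ezh2-cKO and 18.3 in Utx-cKO.

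A rank lower by 20 or more points was seen at 3 member regions for Ezh2-cKO, 3 for Utx-cKO and 0 for Jmjd3-cKO, against 4.82% of all regions for Ezh2-cKO, 6.3% for Utx-cKO and 4.96% for Jmjd3-cKO. In Ezh2-cKO these were Runx2 regions centred 9.88, 129.1 and 136.9 kb downstream of the start. In Utx-cKO they were the Runx2 region at 9.88 kb, the Runx2 start and the Tbrg1 peak beside Panx3. Ranked by −log10 q, such regions numbered 2 for Ezh2-cKO, 0 for Utx-cKO and 0 for Jmjd3-cKO, and those of Ezh2-cKO were the Runx2 region at 9.88 kb and the Ihh start. The Runx2 start stood at percentile 37.2 in Ezh2-cKO and 12.0 in Utx-cKO, with 26.0 in Jmjd3-cKO, against 40.9 in wild type. The long internal Runx2 region ranked higher, at 97.2 in Ezh2-cKO, 95.4 in Utx-cKO, 85.0 in Jmjd3-cKO, against 78.7 in wild type, which is under the 20-point mark. Ranked by −log10 q the Jmjd3-cKO direction turned, with 83.0 in Jmjd3-cKO against 85.5 in wild type. Ihh stood at 11.5 in Ezh2-cKO, 15.3 in Utx-cKO and at 36.8 in Jmjd3-cKO, against 30.1 in wild type. With 1 library per genotype, a shift between genotypes and a difference between libraries cannot be told apart.

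**Figure D5:**
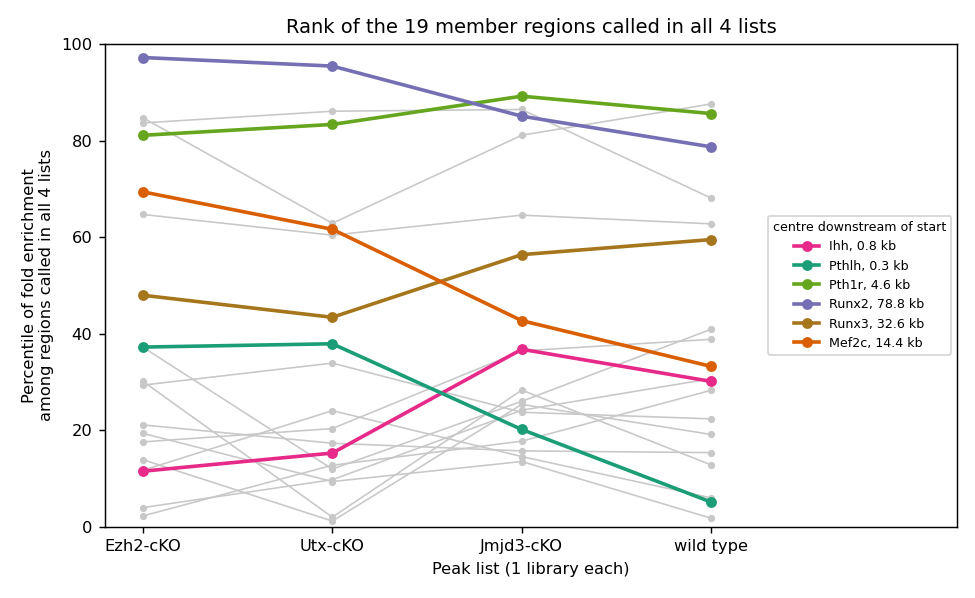
The y axis gives the percentile of fold enrichment among the 19077 regions called in all 4 lists, and the x axis the lists. Each line is 1 of the 19 member regions, with 6 coloured and named by gene and distance from the outermost listed start to the region's centre. The lines of Pthlh and of the Mef2c region at 14.4 kb are each at their lowest point in wild type, while the Pth1r region over the inner starts stays between 81.1 and 89.2.

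Other genes of the pathway were counted by the same rule. All 15 genes of Ihh and PTHrP signalling examined, such as the hedgehog receptor Ptch1 and the transducer Smo, had a peak in each list. So did all 14 genes of the transcriptional control of hypertrophy, among them Sox9, the histone deacetylase gene Hdac4 and Sp7. Of 10 genes of terminal and mineralizing matrix, 6 had a peak in Ezh2-cKO, 8 in Utx-cKO, 6 in Jmjd3-cKO and 6 in wild type. Ibsp and Bglap, which encode bone matrix proteins, had none in any list, as Col10a1 and Mmp13 had none. Dmp1 and Mepe, also of mineralized matrix, had one in Utx-cKO alone, with fold enrichment 2.50 and 3.48, a pattern seen at 2.24% of all genes. These lists were not tested, and their counts stand beside the 68.7% of all genes with a wild-type peak.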

How the data were processed

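The submitters' processing notes name deepTools 2.4.1, HOMER 4.10, FastQC 0.11.5, ChIPseeker, MACS2 and Bowtie2. No genome build is named. Per the file headers, MACS 2.1.2 was run on each ChIP library with its own input in broad mode, with a q threshold of 0.05 and paired fragments. Duplicates were limited to 1 per position, and the larger of ChIP and input was scaled down. The deposited lists give pileup as a coverage signal (not used), −log10 p (not used) and −log10 q, fold enrichment as a ratio over local input, and peak length in bp.

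Gene positions and promoter windows came from RefSeq tables of GRCm38.p6. Of 32851 listed starts, 41.3% lay in a wild-type peak, against 3.06% and 3.03% with positions moved by 20 kb, so the peaks were placed on this build. The tables give no exons, and exons and introns were not told apart. The 9 members, the pathway and marker lists and the named-gene rule (all members, and list genes whose presence differs between lists) were chosen with earlier results of these data known; other list genes named were chosen after their values were seen. No test was made between genotypes. The peak-to-gene step was run on simulated peaks: of 200 genes given a peak among 21887 searched, 200 were found. The simulated peaks began inside the search window, so this checks the code alone. It does not show whether a peak belongs to the gene or to a neighbour. Computations used matplotlib 3.10.9, scipy 1.17.1, pandas 2.3.3 and numpy 2.4.6 under Python 3.11.15. Alternatives were other gene windows, stricter q and fold limits, merged peaks, a larger overlap, equally long lists and other ranks.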

Additional observations from a re-analysis of the deposited data

Results flagged for a closer look

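The length of Pth1r covered by peaks lay on opposite sides of wild type in the demethylase knockouts. It was 2.81 times the wild-type length in Utx-cKO and 0.609 times in Jmjd3-cKO. Pth1r alone was flagged because the rule asked for a difference of 1.5 times or more on both sides of wild type. The same directions were seen at Ihh (3.42 and 0.721), Runx3 (2.11 and 0.703) and Runx2 (1.48 and 0.864), and not at Pthlh, Mef2c or Panx3. The difference at Pth1r was not tested, since each genotype has 1 library. Beside it stand the lists' own totals, at 1.83 times the wild-type covered length in Utx-cKO and 1.02 times in Jmjd3-cKO, and their part in the result was not tested.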

How the results depend on the processing

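No paired analysis was possible because each genotype has 1 ChIP library, and no library could be left out. Counts of regulators and terminal markers with a peak were recomputed with other windows, thresholds, list lengths and overlaps. Counts of members gained or lost were recomputed with other list lengths and windows. Of these 100 recomputed counts, 93 stayed within 1.5 times the values reported. This limit is wide, as a fall from 6 regulators to 4 is within it. The 10 kb window could not change a count, since no peak lay between 5 and 10 kb from a member. Within 2 kb of either gene end, regulators with a peak numbered 4 in Ezh2-cKO, 5 in Utx-cKO, 3 in Jmjd3-cKO and 4 in wild type. Mef2c had none there in any list, Pth1r none except in Utx-cKO, and Runx3 none in Jmjd3-cKO. Their peaks in those lists lay further inside the gene. Terminal markers with a peak numbered 0 in Jmjd3-cKO with the gene body alone, with 2 kb flanks, within 2 kb of either gene end, and with peaks at other genes' ends left out. With the gene body alone and with peaks at other genes' ends left out, both added after the data were seen, 1 member, Panx3, was lost in Jmjd3-cKO. All these exceptions at Panx3 follow from leaving out the Tbrg1 peak. At a fold enrichment of 4 or more, regulators with a peak numbered 5 in each knockout and 4 in wild type, without Ihh in Ezh2-cKO and Utx-cKO, Pthlh in Jmjd3-cKO and both in wild type. The window around listed starts was not run for terminal markers, because Panx3 has no listed start in the table. For single members, covered length moved by over 1.5 times in 7 of 28 values at q of 0.001 or less, 4 of 28 with peaks within 3 kb merged and 1 of 28 with equally long lists. The longest peak moved so in 2 of 28 values at that q and in 5 of 28 with merging. The rank of the strongest peak moved by over 20 percentile points in 8 of 27 values among regions of all 4 lists and in 1 of 28 by −log10 q. Peaks at other genes' ends and equally long lists for covered length were also chosen after seeing the data. Sequencing depth was not varied, and the limit it sets on weak peaks was not tested.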

Other observations

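Of the endothelial genes Pecam1, Cdh5 and Tek, Pecam1 had a peak in each list, with fold enrichment 2.67 in Ezh2-cKO, 4.19 in Utx-cKO, 3.36 in Jmjd3-cKO and 2.71 in wild type, and Cdh5 and Tek had none. The skeletal muscle regulators Myod1 and Myog had none in any list, and the muscle gene Des had one in Utx-cKO alone, with 2.94. Of the blood genes, Spi1 had one in each list, with 8.36 in Ezh2-cKO, 9.12 in Utx-cKO, 5.77 in Jmjd3-cKO and 6.29 in wild type. Ptprc had one in Utx-cKO (3.16) and Jmjd3-cKO (2.73), and Cd3e in Ezh2-cKO (2.35) and Utx-cKO (3.04). Peaks do not show which cells they came from.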
